A study of Mus musculus with 36 samples.

Results

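CD8+ T cells sorted from the tumours of mice without B cells were compared with CD8+ T cells from the tumours of wild-type (WT) mice. The 12 libraries were chosen by cell type, genotype and treatment from the 36 of the series. They were 6 of CD8+ T cells from placebo-treated *muMt*-/- mice and 6 of CD8+ T cells from placebo-treated WT mice. Every mouse carried MC38, a colon adenocarcinoma line of C57BL/6 origin, injected into the skin, and the tumours were taken on day 7. From each tumour, 100 cells positive for CD45, TCRβ and CD8 were sorted into 1 library, and the number of distinct RNA molecules on each gene was counted with molecular barcodes. The *muMt*-/- mice were on C57BL/6J and lack mature B cells through a germline mutation, so that B cells were missing throughout life and in every tissue, while T cells and myeloid cells remain. The study used C57BL/6J and C57BL/6N mice as WT without naming the substrain of each group, and mice of both sexes aged 2 to 5 months without an age for each mouse. According to the paper, the animals were littermates or were matched for age and sex. It describes a placebo pellet under the skin for both groups, whereas the labels of these libraries name no treatment.

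CD8+ T cells recognize peptides on MHC class I through the T cell receptor, kill with perforin and granzymes, and release cytokines such as IFNγ and TNF. Under lasting stimulation in a tumour they also express inhibitory receptors such as PD-1. B cells can act on T cells by presenting antigen and by releasing mediators, and tumour-associated macrophages (TAMs) share the tissue with both and express many of the genes that T cells switch on after stimulation.

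The comparison asks how CD8+ T cells in a tumour differ in their transcripts when the host has no B cells. The libraries of WT replicates 1 to 6 held 32394, 22896, 25283, 53632, 51737 and 76898 molecules, on 5674, 5010, 5298, 7005, 7446 and 8475 detected genes. Those of *muMt*-/- replicates 1 to 6 held 63520, 76994, 77839, 51064, 69271 and 64972 molecules, on 7939, 8371, 8822, 7094, 8490 and 7680 genes. WT replicates 1, 2 and 3 lay below every *muMt*-/- library in both measures, while WT replicate 6 was among the deepest of the 12. The mean number of genes detected was higher by 1581.3 in *muMt*-/- libraries (p = 0.0346 by exact permutation, two-sided, or 0.0411 when adjusted together with the test of molecules). For either measure the exact p was over 0.05 when any 1 of 6 libraries was left out (WT replicates 1, 2 and 3 and *muMt*-/- replicates 2, 3 and 5). In samples of 100 cells, fewer intact cells in a tube and less RNA per cell cannot be told apart, and the deposited table holds 0 of the spike-in genes that the labels say were added to each tube. Mean depth was higher in *muMt*-/- libraries, and its part in the results below was not tested beyond the alternatives named.

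The label of the cells was checked against marker genes. Each of the 6 CD8 T cell markers (*Cd3d*, *Cd3e*, *Cd3g*, *Cd8a*, *Cd8b1* and *Thy1*) had molecules in each of the 12 libraries. Summed per 10000 molecules, these markers had a lowest, median and highest value of 25.3, 35.2 and 51.1 in WT and 14.6, 32.0 and 45.6 in *muMt*-/- libraries. The lowest of all was *muMt*-/- replicate 1. *Cd4*, which marks helper T cells, had 0 molecules in WT and 2 in *muMt*-/- libraries, and *Foxp3*, the transcription factor of regulatory T cells, had 3 and 1. *Ncr1* and *Klra8* of natural killer cells were at 0 in all 12 libraries, and the list of 6 natural killer cell markers had 13 molecules in WT and 25 in *muMt*-/- libraries.

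The B cell markers *Cd79a*, *Cd79b*, *Ms4a1* and *Pax5* were at 0 in all 12 libraries. A count of 0 in 262840 molecules of the WT libraries allows a share of up to 0.00114% (95% limit, 3 molecules), and 0 in 403660 molecules of the *muMt*-/- libraries a share of up to 0.000743%. The list of 12 B cell markers had 4 molecules in WT libraries, 1 each of *Cd22*, *Fcer2a*, *Cr2* and *Ly6d*, and 14 in *muMt*-/- libraries, of which *Blnk*, also found in TAM libraries, made up 7 and *Ly6d* 4. The genotype was not checked on the mutated locus, which was not analysed here. The Y-linked genes *Ddx3y*, *Eif2s3y*, *Kdm5d* and *Uty* together had between 3 and 17 molecules in each library, and *Xist*, transcribed from an inactive X chromosome, was at 0 in all 12. By these genes the cells of all 12 libraries came from males, so that sex did not differ between the groups.

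Markers of tumour and stroma were sparse. The keratin genes *Krt7*, *Krt8*, *Krt18*, *Krt19* and *Krt20* were at 0 in all 12 libraries, and the 10 epithelial markers had 8 molecules in WT and 5 in *muMt*-/- libraries. The 12 fibroblast and endothelial markers had 162 and 376 molecules, led by the collagen gene *Col3a1* with 76 and 206. Summed normalized numbers of molecules of this list ranged from 4.42 to 70.9 in WT and from 2.5 to 111 in *muMt*-/- libraries. A normalized number is the count divided by the library's size factor from DESeq2, and values per library given below are on this scale. Exceptions, which are plain counts, are the macrophage marker molecules of the next paragraph, molecules of whole libraries, totals over libraries and those behind a fold given as at least.

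Macrophage RNA was present in these T cell libraries and was higher without B cells. A list of 20 macrophage markers was used, of which *Adgre1*, *Csf1r*, *C1qa*, *C1qb*, *C1qc* and *Itgam* were taken as defining. In WT replicates 1 to 6 the list had 11, 7, 14, 10, 126 and 43 molecules, and 4, 4, 8, 1, 16 and 15 of the 20 genes were seen. In *muMt*-/- replicates 1 to 6 it had 530, 91, 159, 60, 255 and 100 molecules, from 20, 13, 18, 15, 18 and 16 genes. The cathepsin gene *Ctss*, which is also read in T cells, was the most abundant of the 20 in each library, with 93 of the 211 molecules in WT and 330 of the 1195 in *muMt*-/- libraries.

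As a share of all molecules, the summed markers were lowest in WT replicate 4 at 0.0186% (95% Wilson interval 0.0101 to 0.0343) and highest in *muMt*-/- replicate 1 at 0.834% (0.767 to 0.908). WT replicate 5, at 0.244% (0.205 to 0.29), was the one WT library above any *muMt*-/- library. TAM libraries of the same genotypes gave the scale, with the same 20 markers at 2.21% ± 0.224 (SD, n = 6) in WT and 1.9% ± 0.187 (SD, n = 6) in *muMt*-/- mice. Relative to the TAMs of their own group, WT replicates 1 to 6 stood at 1.54, 1.38, 2.5, 0.843, 11 and 2.53%, and *muMt*-/- replicates 1 to 6 at 43.9, 6.22, 10.7, 6.18, 19.4 and 8.1%. By the 6 defining markers alone, WT replicates 1 to 6 stood at 1.18, 0.554, 1.51, 0.0, 6.13 and 0.99%. *muMt*-/- replicates 1 to 6 then stood at 35.4, 2.12, 6.49, 3.51, 15.8 and 8.79%. Among the 6 defining markers, all 6 were at 0 in WT replicate 4 and none in *muMt*-/- replicates 1, 3 and 5. *Adgre1*, which encodes the F4/80 antigen, was at 0 in each WT library and had 6 molecules over 3 *muMt*-/- libraries.

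**Figure D1:**
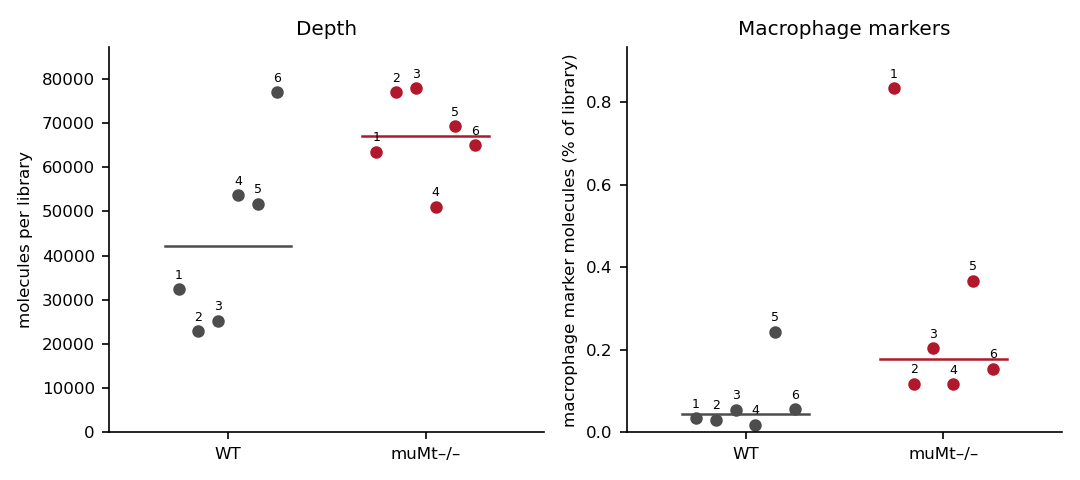
Molecules per library (left) and macrophage marker molecules as a percentage of the library (right), each point 1 mouse with its replicate number and each line a group median. WT libraries range from 22896 to 76898 molecules and from 0.0186 to 0.244% macrophage markers, and *muMt*-/- libraries from 51064 to 77839 molecules and from 0.117 to 0.834%.

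Monocyte and dendritic cell genes were highest in the same library of each group as the macrophage markers. The dendritic cell list, which also holds the MHC class II genes of macrophages, had summed normalized numbers of 1.03, 18.5 and 171 (lowest, median and highest) in WT and 77.3, 130 and 500.0 in *muMt*-/- libraries. The highest of each group were again WT replicate 5 and *muMt*-/- replicate 1. The classical dendritic cell genes *Xcr1*, *Clec9a*, *Flt3* and *Zbtb46* had 1 molecule together in WT and 3 in *muMt*-/- libraries. *Fscn1*, of migrating dendritic cells, had 13 molecules in 2 WT and 42 in 5 *muMt*-/- libraries, and the chemokine gene *Ccl22* had 0 and 3. The monocyte and neutrophil list had 0.0, 3.95 and 35.4 in WT and 3.33, 48.1 and 211 in *muMt*-/- libraries, most of it from *Fn1*, the fibronectin gene, with 39 and 326 molecules. The neutrophil gene *S100a8* had 12 and 14 molecules.

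Genes were tested when their normalized number averaged more than 1 in the series' 18 libraries of CD8+ T cells, which left 6663. These 18 include libraries of GABA-treated *muMt*-/- mice, so that *muMt*-/- libraries outnumber WT ones. A gene read mostly in *muMt*-/- mice thus passed more easily than one read mostly in WT mice. The test was edgeR's quasi-likelihood F-test, with the spread estimated over all 18 libraries, those of GABA-treated mice included. A log2 fold change is *muMt*-/- minus WT, so that positive values are higher without B cells, and TMM normalization set the median of all tested genes to 0.15, against 0.06 with the size factors of DESeq2. Values below are to be read against that shift. After Benjamini-Hochberg adjustment in edgeR, 0 of the 6663 genes (0.0%) had an adjusted p under 0.05, and DESeq2's Wald test also called 0. At an unadjusted p under 0.05, edgeR had 358 genes higher (5.37% of those tested) and 53 lower (0.795%), and DESeq2 161 and 61. Of edgeR's genes at that threshold 87.1% were higher with TMM and 71.7% with DESeq2's size factors, which gave 266 higher and 105 lower. With edgeR's filterByExpr, which kept 1266 genes, 52 were higher and 49 lower (51.5% of the calls higher). At a mean above 5, with 1883 genes, the counts were 89 and 49 (64.5% higher). The excess of higher genes was thus smaller among well-counted genes. With only the 12 libraries of the comparison in filter and fit, 303 of 6215 genes were higher and 66 lower (82.1% of the calls higher).

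The precision of single genes was limited. Among the 1903 genes with a mean of at least 5, the median standard error of the log2 fold change was 0.35, and for 1076 of them the 95% interval lay within a 2-fold difference in either direction. For the rest the interval reached beyond 2-fold in at least 1 direction, so that a 2-fold difference could have been missed.

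To allow for macrophage RNA, the tested genes were divided by their level in TAMs relative to CD8+ T cells, taken from libraries of GABA-treated *muMt*-/- mice that are not part of the comparison. Genes with at least 2 times the share of molecules in TAMs were called macrophage-high (738), those with under 0.5 times the share T cell-high (903), and those between shared (5022). Among macrophage-high genes, 163 were higher at an unadjusted p under 0.05 (22.1%) and 3 lower (0.407%), and the median log2 fold change was 0.75. Among shared genes, 180 were higher (3.58%) and 35 lower (0.697%), with a median of 0.14. Among T cell-high genes, 15 were higher and 15 lower (1.66% each), with a median of -0.01. Macrophage-high genes thus made up 163 of the 358 higher genes and 3 of the 53 lower ones, whereas T cell-high genes had as many in each direction.

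The smallest adjusted p among T cell-high genes was 0.324 (edgeR, Benjamini-Hochberg), and 166 of the 281 with a mean of at least 5 had a 95% interval within a 2-fold difference. With DESeq2's size factors the T cell-high median was -0.11, with 11 genes higher and 31 lower. When the marker share of each library entered the fit as a covariate, the median of macrophage-high genes was -0.06 and that of T cell-high genes 0.34, with 91 T cell-high genes higher and 6 lower. When each group's mean TAM level, scaled by the marker level of each library, was subtracted from the counts, the medians were 0.33 for macrophage-high, 0.09 for shared and 0.05 for T cell-high genes. Both macrophage allowances were built from the 20 macrophage markers, so that what they do to those markers is fixed in part. The share that served as covariate was above any *muMt*-/- library in WT replicate 5 alone among WT libraries. The covariate and the group can therefore hardly be told apart. These allowances differ in what they do to T cell genes, and which is nearer to the true T cell level was not tested.

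**Figure D2:**
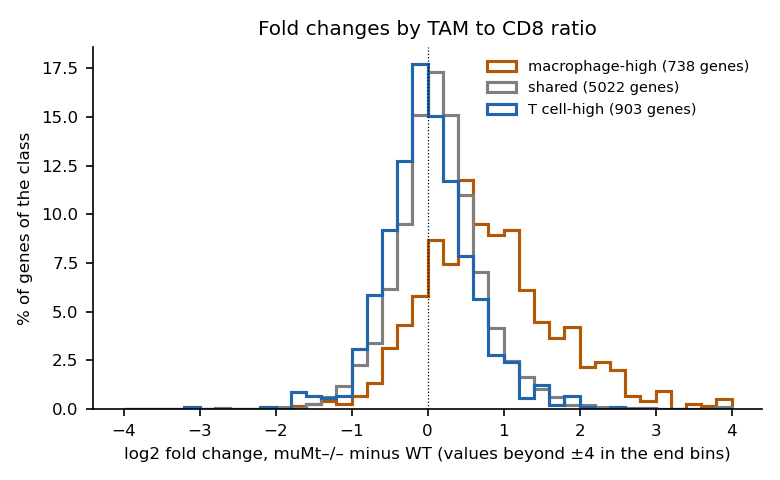
Distribution of log2 fold changes (*muMt*-/- minus WT) as a percentage of the genes in each class, by level in TAMs relative to CD8+ T cells. The median is 0.75 for the 738 macrophage-high genes, 0.14 for the 5022 shared genes and -0.01 for the 903 T cell-high genes.

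Of the 10 genes with a mean of at least 5 that had the smallest p among the higher ones, 8 were macrophage-high. *Ftl1*, the light chain of the iron store ferritin (chromosome 7, 45457944 to 45459886, mm10), had 21.6, 27.2 and 37.6 molecules in WT and 31.9, 51.5 and 122 in *muMt*-/- libraries, with a log2 fold change of 1.18 (95% interval 0.64 to 1.72, edgeR, Benjamini-Hochberg adjusted p = 0.27). In 5 of 6 *muMt*-/- libraries it was above every WT library. The TAM level of *Ftl1* scaled by the marker level came to means of 6.62 in WT and 26.0 in *muMt*-/- libraries, against measured means of 28.7 and 62.9. With the marker covariate its log2 fold change was 0.50, and after subtraction 0.98. Under that covariate the unadjusted p was over 0.05 for 6 of the 8, all but *Grina* and *Klf4*. Macrophage markers, listed above for each library, were also higher in *muMt*-/- libraries as a group. Their part in the difference of this and the following genes was not tested.

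*Cd74*, the invariant chain of MHC class II, had 0.0, 6.16 and 62.9 molecules in WT and 32.7, 46.0 and 226 in *muMt*-/- libraries (log2 fold change 2.29, 95% interval 1.03 to 3.54, edgeR, Benjamini-Hochberg adjusted p = 0.318). WT replicate 5 and *muMt*-/- replicate 1 were far above the rest of their groups, and 2 of 6 *muMt*-/- libraries lay above every WT library. Its scaled TAM level came to 7.42 and 48.8, against measured means of 15.9 and 77.7. The class II genes *H2-Ab1*, *H2-Aa* and *H2-Eb1* had log2 fold changes of 2.02, 2.07 and 1.83. Under the marker covariate these were 0.21, 0.44 and -0.13, and that of *Cd74* was 0.4. After subtraction they were 1.73, 1.61 and 1.25, and 1.81 for *Cd74*. *Mpeg1*, the pore-forming perforin-2 of macrophages, had 0.0, 2.33 and 11.4 molecules in WT and 5.0, 10.4 and 54.6 in *muMt*-/- libraries (log2 fold change 2.44, 95% interval 1.21 to 3.67), with 3 of 6 libraries above every WT library.

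The other macrophage-high genes among these were *Psap* and *Grn*, whose products work in the lysosome, the protease inhibitor gene *Cst3*, the transcription factor gene *Klf4* and *Grina*, with log2 fold changes between 1.42 and 2.33. *Grina*, which encodes a membrane protein of the TMBIM family, had 3.1, 4.46 and 5.72 molecules in WT and 6.54, 10 and 17.2 in *muMt*-/- libraries. Here the groups did not overlap, and *muMt*-/- replicate 1 did not stand apart. Its scaled TAM level came to 0.72 and 4.41 of the measured means of 4.37 and 11.8, and its log2 fold change was 1.5, with 1.05 under the marker covariate and 1.2 after subtraction.

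The other 2 of the 10 were shared genes. *Plac8*, a small cysteine-rich protein expressed in lymphoid and myeloid cells (chromosome 5, 100551589 to 100572253), had 12.8, 21.4 and 35.4 molecules in WT and 35.1, 42.6 and 49.8 in *muMt*-/- libraries. WT replicate 5 reached the lowest *muMt*-/- value, and 5 of 6 *muMt*-/- libraries were above every WT library. The log2 fold change was 1.01 (95% interval 0.47 to 1.55, edgeR, Benjamini-Hochberg adjusted p = 0.318), with 1.0 under the marker covariate, 0.88 after subtraction and 0.99 with all libraries thinned to 22896 molecules. Its scaled TAM level came to 0.778 and 7.09, against measured means of 22.6 and 42.5. *Mir6240*, annotated as a microRNA locus, had 3.76, 5.33 and 8.84 molecules in WT and 6.66, 21.4 and 67.8 in *muMt*-/- libraries, the highest in *muMt*-/- replicate 1, and its log2 fold change of 2.29 was 0.74 under the marker covariate, where the unadjusted p was over 0.05.

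Lower genes were fewer, and 7 of the 10 with the smallest p at a mean of at least 5 were shared and 3 T cell-high. *Fyb*, the adaptor ADAP that links the T cell receptor to integrin activation (chromosome 15, 6522796 to 6665608), had 20.2, 25.1 and 38.5 molecules in WT and 9.66, 13.6 and 16.2 in *muMt*-/- libraries. All 6 *muMt*-/- libraries were below every WT library. The log2 fold change was -0.85 (95% interval -1.39 to -0.31, edgeR, Benjamini-Hochberg adjusted p = 0.375), with -1.08 under the marker covariate, -1.26 after subtraction and -0.71 after thinning, where the unadjusted p was over 0.05. TAMs express *Fyb* at 1.51 times the share of CD8+ T cells, and the part of macrophage RNA in its level was not tested.

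*Nsd3*, a histone methyltransferase gene, also had all 6 *muMt*-/- libraries below every WT library, with 12, 16.2 and 24.0 molecules in WT and 8.17, 9.86 and 11.2 in *muMt*-/- libraries (log2 fold change -0.65). Its unadjusted p was over 0.05 under the marker covariate, after thinning, with TMM over T cell-high genes and with log2 depth (molecules per library) as a covariate. The interferon-induced gene *Ifit3* had 1.83, 8.03 and 14.9 molecules against 0.0, 3.1 and 5.61 (log2 fold change -1.49, 95% interval -2.59 to -0.39). It was low in WT replicates 1 and 2 as well, so that the groups overlapped. *Commd7*, *Smap1*, *Rbm8a* and *Ppp4r2* had log2 fold changes between -1.38 and -0.83.

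The lower T cell-high genes had varied roles. *Ccnd2*, the D-type cyclin of G1 phase (chromosome 6, 127125162 to 127152188), had 29.7, 36 and 53.2 molecules in WT and 20, 23.7 and 32.5 in *muMt*-/- libraries, with 5 of 6 below every WT library. Its log2 fold change was -0.52 (95% interval -0.94 to -0.10, edgeR, Benjamini-Hochberg adjusted p = 0.68). *Bcl2*, which blocks apoptosis, had 6.19, 9.69 and 12.8 molecules against 2.97, 5.08 and 8.33, with 4 of 6 *muMt*-/- libraries below every WT library (log2 fold change -0.68, 95% interval -1.36 to 0.00). Both had negative log2 fold changes under each scaling and both macrophage allowances, but the unadjusted p was over 0.05 for *Ccnd2* under the marker covariate (-0.36), with TMM over T cell-high genes and with log2 depth. For *Bcl2* it was over 0.05 under the same 3 alternatives, after subtraction and after thinning.

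*Rps27rt*, a retrotransposed copy of the ribosomal protein gene *Rps27*, had 111, 126 and 189 molecules in WT and 71.2, 85.2 and 95.8 in *muMt*-/- libraries, with no overlap (log2 fold change -0.58, edgeR, Benjamini-Hochberg adjusted p = 0.377). *Rps27* itself had 150, 278 and 325 against 103, 143 and 226 (log2 fold change -0.54, 95% interval -1.11 to 0.03, and 0.14 under the marker covariate), an unadjusted p over 0.05. For *Rps27rt* the unadjusted p was over 0.05 under the marker covariate and with log2 depth. The copies are nearly identical in sequence, and how many molecules belong to which is uncertain. *Tfrc* (transferrin receptor), *Pde7a* (a cAMP phosphodiesterase) and *Akap13*, also among the 10 smallest p of this class, had negative log2 fold changes (-0.66, -0.78 and -0.47) with an unadjusted p over 0.05. *Crem* (a cAMP-responsive transcription factor) and *Bola2* stood at -0.83 and -0.85, with an unadjusted p under 0.05. For both it was over 0.05 under the marker covariate and with log2 depth. For *Crem* it was also over 0.05 after subtraction and with TMM over T cell-high genes, and for *Bola2* after thinning.

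Higher T cell-high genes were led by *BC018473*, a transcript whose role is not established (chromosome 11, 116752167 to 116757883). It had 0.751, 7.27 and 9.15 molecules in WT and 11.2, 14.5 and 26.3 in *muMt*-/- libraries, with 6 of 6 above every WT library. Its log2 fold change was 1.59 (95% interval 0.71 to 2.47, edgeR, Benjamini-Hochberg adjusted p = 0.324), with 1.06 under the marker covariate, 0.84 after thinning, where the unadjusted p was no longer under 0.05, and 2.34 with log2 depth as a covariate. Its ratio of TAM to CD8+ T cell share was 0.477, close to the limit of its class. *Rbm38*, a p53-induced RNA-binding protein gene, had 0.0, 2.91 and 8.84 molecules against 3.03, 6.99 and 9.99 (log2 fold change 1.19), with wide overlap. The log2 fold change of 2.60 of *H19*, an imprinted non-coding RNA, came from *muMt*-/- replicate 2 with 68.4 molecules, where the median of the group was 0.409, and without that library it was -0.33.

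Counting genes whose groups did not overlap, 20 of the 6663 were higher in each *muMt*-/- library than in each WT library (0.3%) and 9 were lower (0.135%). Of the 20, 7 were macrophage-high, 12 shared and 1 T cell-high, and of the 9, 8 were shared and 1 T cell-high. Among the 20, 5 had 0 molecules in all WT libraries, whose depth was lower. Means were above 5 in both groups for *BC018473* and *Pdia6* among the higher genes. Among the lower ones this held for *Fyb*, *Rps27rt*, *Nsd3*, *Wdr89*, *Rplp2-ps1*, *Prrc2b* and *Rpl13*. Lower genes thus outnumbered higher ones among those well counted in both groups.

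The T cell programmes are given as lists, each with the number of tested members past an unadjusted p of 0.05 by direction and the median log2 fold change. Over all genes tested the same values were 358 higher (5.37%), 53 lower (0.795%) and a median of 0.15. No member of any list had an adjusted p under 0.05 in this fit, whereas 37 of the 183 named genes did without the filter on low numbers and 8 without WT replicate 5, among them *Cd74*, *Csf1r*, *Ctss*, *H2-Aa*, *H2-Ab1* and *Mpeg1* (edgeR, Benjamini-Hochberg). Counts under alternatives are given as higher and lower, and after thinning or subtraction fewer members were tested in many lists, as stated where medians are given.

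Of the T cell receptor complex and its proximal signalling proteins, 22 of 24 genes were tested, with 0 higher, 2 lower (*Fyb* and *Sit1*, an adaptor that dampens receptor signalling) and a median of -0.07. That median was -0.19 with DESeq2's size factors, 0.02 after TAM subtraction and 0.51 under the marker covariate, so its sign depended on the allowance. The calls were 0 and 4 with size factors, 0 and 1 after subtraction and 6 and 1 under the marker covariate. The summed level of the list was 341, 491 and 561 in WT and 255, 384 and 500.0 in *muMt*-/- libraries, lowest in *muMt*-/- replicate 1. The co-receptor chain *Cd8b1* had 30.0, 45.8 and 71.2 molecules against 17.2, 30.1 and 47.5 (log2 fold change -0.40, 95% interval -0.94 to 0.15, and 0.30 under the marker covariate). *Cd8a* had 24.0, 41.3 and 55.0 against 16.2, 35.3 and 52.7, with a log2 fold change of 0.00 (95% interval -0.57 to 0.57). Under the marker covariate it was 0.79, with an unadjusted p under 0.05, and after subtraction 0.09. The groups overlapped for both chains, and 3 of 6 *muMt*-/- libraries were below every WT library for *Cd8b1*.

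Of 23 genes for cytotoxic granules and killing, 19 were tested, with 2 higher, 0 lower and a median of -0.08. The 2 higher genes, the granzyme-activating protease gene *Ctsc* and the lysosomal membrane gene *Lamp1*, were both macrophage-high. *Ctsc* had 2.4, 6.07 and 41.2 molecules in WT and 13.4, 16.8 and 103 in *muMt*-/- libraries, and its scaled TAM level came to 6.6 and 31.7, against measured means of 11.2 and 32.4. The log2 fold change of *Ctsc*, 1.45, turned to -0.44 under the marker covariate and -1.1 after subtraction. Without *Ctsc* and *Lamp1*, the other 17 tested members had 0 higher, 0 lower and a median of -0.09. For the whole list the median was -0.17 with size factors (2 and 0), -0.01 after subtraction (0 and 0) and 0.41 under the marker covariate (5 and 0).

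*Gzmb*, granzyme B (chromosome 14, 56258836 to 56262334), was the most abundant of the list with 1616 molecules. It had 70.8, 133 and 174 in WT and 87.0, 136 and 192 in *muMt*-/- libraries, with a log2 fold change of 0.18 (95% interval -0.27 to 0.62). The groups overlapped almost fully, and the upper bound lies below a 2-fold difference. *Prf1*, perforin, had 20 molecules in each group and a log2 fold change of -0.43 (95% interval -1.62 to 0.76), so that a 2-fold lower level lies within the interval. *Nkg7*, a granule membrane protein, had 46.9, 71.9 and 119 against 18.2, 71.2 and 94.2 (log2 fold change -0.09), and the granule proteoglycan *Srgn* 69.7, 75.9 and 88.7 against 63.3, 81.9 and 142 (log2 fold change 0.28).

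Of 19 effector cytokines and chemokines, 17 were tested, with 1 higher (*Tnf*), 1 lower (*Ccl5*) and a median of 0.30. The median was -0.11 after thinning (0 and 1, over the 13 still tested, without *Tnf*). It was 0.43 under the marker covariate (5 and 0) and 0.16 with log2 depth (0 and 0). *Ifng*, whose product IFNγ activates macrophages and antigen presentation, had 101, 262 and 326 molecules in WT and 107, 202 and 362 in *muMt*-/- libraries. The highest value was in *muMt*-/- replicate 4 and the lowest in WT replicate 4, the groups overlapped widely, and the log2 fold change was -0.05 (95% interval -0.60 to 0.51). *Tnf* had 3 molecules over 2 WT libraries and 23 over all 6 *muMt*-/- libraries, with the highest normalized number, 10.7, in *muMt*-/- replicate 3 and a group median of 1.07. Its log2 fold change of 2.21 was 1.51 with log2 depth as a covariate, where the unadjusted p was over 0.05. *Il2*, the T cell growth factor, had 15 and 40 molecules and a log2 fold change of 0.88 (95% interval -0.60 to 2.37).

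*Ccl5*, a chemokine of effector T cells (chromosome 11, 83525778 to 83530518), had 52.6, 83.8 and 118 molecules in WT and 7.08, 44.2 and 76.6 in *muMt*-/- libraries. It was low in *muMt*-/- replicates 1, 3 and 5, which were also the libraries with most macrophage markers and lay below every WT library, while replicates 2, 4 and 6 lay among WT values. The log2 fold change was -0.77 (95% interval -1.52 to -0.02, edgeR, Benjamini-Hochberg adjusted p = 0.766), with -0.06 under the marker covariate and -0.82 after subtraction, and the unadjusted p was over 0.05 under the covariate and with log2 depth. *Ccl4* had 107, 218 and 270 against 47.5, 171 and 382 (log2 fold change 0.26), and *Ccl3* 95.1, 113 and 218 against 28.3, 115 and 227 (log2 fold change 0.03). Under the marker covariate these 2 genes stood at 1.14 and 0.61, each with an unadjusted p under 0.05, and after subtraction at 0.31 and 0.09. Both attract lymphocytes and myeloid cells, and both were lowest of all in *muMt*-/- replicate 1.

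**Figure D3:**
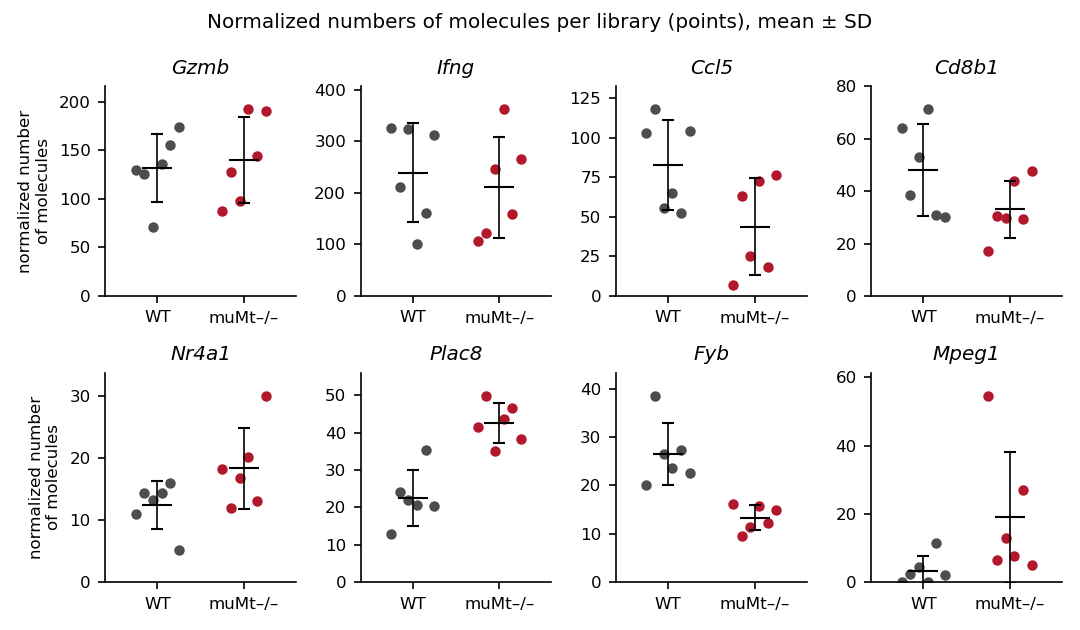
Normalized numbers of molecules per library for 8 genes, each point 1 mouse, with the group mean and SD. *Gzmb* and *Ifng* overlap between the groups, *Plac8* has 5 of 6 *muMt*-/- libraries above every WT library, *Fyb* has 6 of 6 below, and *Mpeg1* reaches 54.6 in *muMt*-/- replicate 1.

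Of 19 inhibitory receptors and exhaustion genes, 12 were tested, with 1 higher, 0 lower and a median of 0.64. The median was above that of all genes under each scaling tried, at 0.54 with size factors, 0.45 after subtraction (11 tested) and 0.36 after thinning (9 tested). Under the marker covariate it was 0.91, with 6 higher and 0 lower, and without the macrophage-high members 0.5. *Havcr2*, the inhibitory receptor TIM-3 (chromosome 11, 46454931 to 46481255), had 2.4, 5.0 and 7.22 molecules in WT and 5.72, 8.86 and 12.5 in *muMt*-/- libraries. In 4 of 6 *muMt*-/- libraries, all but replicates 1 and 5, it was above every WT library. The log2 fold change was 0.87 (95% interval 0.11 to 1.62, edgeR, Benjamini-Hochberg adjusted p = 0.713), the same after subtraction and 1.37 under the marker covariate, and the unadjusted p was over 0.05 after thinning and with log2 depth.

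*Pdcd1*, which encodes PD-1, had 2.4, 13 and 21.7 molecules against 5.06, 13.9 and 17.9, with a log2 fold change of 0.10 (95% interval -0.66 to 0.86) and full overlap. *Ctla4*, an inhibitor of costimulation, had 5.72, 9.77 and 17.7 against 1.01, 16.2 and 25.8 (log2 fold change 0.67, 95% interval -0.17 to 1.5), with the lowest value of all in *muMt*-/- replicate 1. It stood at 1.65 under the marker covariate and 1.05 with log2 depth, each with an unadjusted p under 0.05. After subtraction it was 0.74 and after thinning 0.36, each with an unadjusted p over 0.05. *Entpd1*, the ectonucleotidase CD39, was macrophage-high, with a log2 fold change of 0.61 that was 0.02 after subtraction and -0.35 under the marker covariate. The signalling regulator *Rgs16*, the most abundant of the list with 301 molecules, stood at -0.02.

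Of 14 costimulatory receptors, 12 were tested, with 0 in either direction and a median of 0.06, which was -0.05 with size factors, -0.37 after thinning (11 tested) and 0.53 under the marker covariate, where 4 were higher. *Tnfrsf9* (4-1BB) had 19.2, 30.8 and 39.8 molecules against 6.07, 25.7 and 37.0, *Icos* 13.7, 19.3 and 45.7 against 12.1, 26.1 and 33.4, and *Cd28* 5.26, 16.4 and 33.2 against 6.86, 14.7 and 21.3. Their log2 fold changes were -0.23, 0.14 and -0.14, and the groups overlapped for each.

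Of 20 genes of naive and memory T cells, 18 were tested, with 0 higher, 1 lower (*Bcl2*) and a median of -0.19, which was -0.30 with size factors (0 and 1), -0.08 after subtraction (0 and 0, 17 tested) and 0.02 with log2 depth as a covariate (0 and 0). *Il7r*, the receptor of the survival cytokine IL-7, had 9.76, 17.0 and 22.0 molecules in WT and 7.62, 12 and 17.9 in *muMt*-/- libraries (log2 fold change -0.28, 95% interval -0.89 to 0.33). *Ccr7*, the lymph node homing receptor, had 12, 14.6 and 31.0 against 6.66, 13.5 and 23.3 (log2 fold change -0.23). The chromatin organizer *Satb1* and the memory-associated surface gene *Ly6c2* stood at -0.16 and 0.12.

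All 20 effector transcription factor genes were tested, with 2 higher, 0 lower and a median of 0.07, which was -0.03 with size factors (1 and 0), 0.08 after subtraction (1 and 0), 0.17 under the marker covariate (5 and 0) and 0.27 with log2 depth (0 and 0). *Irf8*, which CD8+ T cells induce on activation and macrophages also express, had 14.4, 21.9 and 25.5 molecules in WT and 22.9, 31.1 and 42.6 in *muMt*-/- libraries, with 4 of 6 above every WT library. Its log2 fold change was 0.63 (95% interval 0.11 to 1.15), 0.59 under the marker covariate and 0.40 after subtraction, with an unadjusted p over 0.05 after subtraction and with log2 depth. *Bhlhe40*, a T cell-high factor of cytokine-producing and resident T cells, had 11.3, 12.4 and 23.7 against 12.3, 21.1 and 24.7 (log2 fold change 0.55, 95% interval 0.01 to 1.10), with an unadjusted p over 0.05 with size factors, after thinning and with log2 depth. WT replicate 4 was high and *muMt*-/- replicate 5 low among their groups. *Id2*, the most abundant of the list, had a log2 fold change of 0.30.

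Of 21 genes for tissue residency and homing, 16 were tested, with 1 higher, 0 lower and a median of 0.01, which was -0.11 with size factors (1 and 2), -0.09 after subtraction (0 and 2) and -0.05 under the marker covariate (2 and 3). The higher gene was *Ccr2*, a chemokine receptor of monocytes and effector T cells, which was macrophage-high and had a log2 fold change of 1.29 that turned to -0.13 under the marker covariate and -0.26 after subtraction. *Selplg*, the selectin ligand PSGL-1, had 27.0, 36.8 and 43.3 molecules against 22.1, 26.4 and 28.2 (log2 fold change -0.35), with 3 of 6 *muMt*-/- libraries below every WT library. *Cd44*, the hyaluronan receptor of activated T cells, stood at 0.16, the chemokine gene *Xcl1* at -0.23, and the transcription factor gene *Klf6* at -0.06.

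Of 13 NK-type receptor genes, 7 were tested, with 2 higher, 0 lower and a median of 0.66. The higher genes, *Tyrobp* and *Fcer1g*, encode signalling adaptors shared with macrophages and were macrophage-high. Without them the other 5 had a median of 0.19. The log2 fold changes of *Tyrobp* and *Fcer1g*, 1.58 and 1.39, were -0.21 and -0.26 under the marker covariate. After subtraction these 2 genes stood at 1.25 and -0.22. The list had 0 and 0 after subtraction and with log2 depth, and 4 and 0 under the marker covariate (median 0.88). *Klrc1* and *Klrd1*, which form the inhibitory receptor NKG2A and CD94, had log2 fold changes of 0.06 and -0.12, and the activating receptor gene *Klrk1* (NKG2D) 0.19, with overlap for each.

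All 18 genes of IL-2 receptor and STAT5 signalling were tested, with 2 higher, 0 lower and a median of 0.22. The calls were 1 and 1 with size factors, 0 and 0 under the marker covariate and 0 and 1 of 14 tested after thinning. *Il4ra*, the IL-4 receptor chain, was macrophage-high and had 0.0, 2.75 and 6.86 molecules in WT and 4.16, 6.89 and 23.3 in *muMt*-/- libraries (log2 fold change 1.75, 95% interval 0.72 to 2.78). After TAM subtraction it stood at 1.32 and under the marker covariate at 0.82, and the unadjusted p was over 0.05 under the covariate and after thinning. *Socs2*, a feedback inhibitor of STAT5, had 3 molecules in WT and 17 in *muMt*-/- libraries. The receptor chain *Il2rb* had 17.7, 24.0 and 36.1 against 5.06, 18 and 24.7 (log2 fold change -0.50, 95% interval -1.09 to 0.09, and 0.07 under the marker covariate), with 3 of 6 *muMt*-/- libraries below every WT library, whereas *Il2ra* had 10.3, 12.6 and 26.3 against 14.2, 18.9 and 24.1 (log2 fold change 0.45, 95% interval -0.11 to 1.01).

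Of 29 genes of the early response to T cell activation, 27 were tested, with 5 higher, 0 lower and a median of 0.36. With size factors 2 were higher and 0 lower (median 0.27), after TAM subtraction 2 and 0 (0.28), under the marker covariate 2 and 1 (0.21) and after thinning 3 and 0 of 24 tested (0.15). The summed level was 356, 489 and 535 in WT and 369, 466 and 790.0 in *muMt*-/- libraries, with replicate 1 far above the other 11 libraries. *Fos* and *Jun* are also in the heat shock and dissociation list, whose summed level was 356, 395 and 454 in WT and 344, 425 and 536 in *muMt*-/- libraries, again highest in replicate 1, and the part of tissue handling was not tested. *Nr4a1*, an orphan nuclear receptor induced by T cell receptor signals (chromosome 15, 101253902 to 101274795), was the T cell-high member among the 5. It had 5.26, 13.8 and 16.0 molecules in WT and 11.9, 17.5 and 30.0 in *muMt*-/- libraries, with 4 of 6 above every WT library. Its log2 fold change was 0.72 (95% interval 0.11 to 1.32, edgeR, Benjamini-Hochberg adjusted p = 0.686), with 0.60 under size factors, 0.73 after subtraction and 1.05 under the marker covariate. The AP-1 genes *Fos* and *Fosb* were macrophage-high, and the log2 fold change of *Fos*, 0.96, was -0.63 under the marker covariate. *Junb* and *Zfp36*, which destabilizes cytokine mRNA, were shared genes at 0.52 and 0.72. *Btg1*, the most abundant of the list, had 81.9, 93.3 and 113 molecules against 54.8, 84.0 and 142, and stood at -0.01.

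Of 30 genes of the TNF and NF-κB response, 28 were tested, with 7 higher, 0 lower and a median of 0.32, which was 0.23 with size factors (6 and 0), 0.34 after subtraction (3 and 0), 0.24 after thinning (3 and 0, 20 tested), 0.12 with log2 depth (2 and 0) and 0.10 under the marker covariate (1 and 1). Of the 7 higher genes, 6 were macrophage-high, namely *Clec4e*, *Tnfaip2*, *Cxcl2*, *Il1b*, *Ptgs2* and *Sod2*, and the adhesion molecule gene *Icam1* was shared. *Il1b*, the gene of the myeloid cytokine IL-1β, had 0.0, 1.11 and 37.7 molecules in WT and 3.36, 15.0 and 143 in *muMt*-/- libraries, the highest of each group in WT replicate 5 and *muMt*-/- replicate 1. Its log2 fold change of 1.84 was -0.81 under the marker covariate and 1.71 after subtraction. *Clec4e*, a receptor of macrophages for microbial glycolipids, had 0 molecules in WT and 32 in *muMt*-/- libraries, in each of the 6, and was at least 7.03-fold higher against a floor of 3 molecules over the WT group. Of the 32 molecules 17 were in *muMt*-/- replicate 1, without which the bound was 3.84-fold. With *Clec4e* at that bound the list's median was unchanged at 0.32.

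Without the macrophage-high members, the other 19 tested genes of the TNF and NF-κB list had 1 higher, 0 lower and a median of 0.22. *Nfkbia*, the NF-κB inhibitor, had 14.7, 29.0 and 38.9 molecules against 22.4, 33.8 and 60.7 (log2 fold change 0.41, 95% interval -0.12 to 0.94), and *Tnfaip3*, which ends NF-κB signalling, 26.4, 34.0 and 49.5 against 25.4, 30.9 and 39.6 (log2 fold change -0.14). The apoptosis regulator *Cflar* stood at -0.24, with 4 of 6 *muMt*-/- libraries below every WT library. Over the whole list, the summed level was 152, 208 and 332 in WT and 203, 244 and 544 in *muMt*-/- libraries, the highest in WT replicate 5 and *muMt*-/- replicate 1.

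Of 32 genes stimulated by type I interferon, 28 were tested, with 1 higher, 1 lower and a median of 0.16, which was -0.01 after TAM subtraction (0 and 1, 27 tested), 0.34 after thinning (0 and 1, 21 tested) and 0.30 under the marker covariate (2 and 1). The lower gene was *Ifit3*. The higher one, the nucleic acid sensor *Zbp1*, had 0.0, 5.04 and 7.22 molecules in WT and 5.94, 9.57 and 10.1 in *muMt*-/- libraries, with 5 of 6 above every WT library (log2 fold change 0.99, 95% interval 0.16 to 1.81). It stood at 1.02 under the marker covariate and 0.87 after subtraction, with an unadjusted p over 0.05 after subtraction and after thinning.

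Of 28 genes induced by IFNγ, 27 were tested, with 1 higher, 0 lower and a median of 0.26, which was 0.16 with size factors (0 and 0), 0.07 after TAM subtraction (0 and 1) and 0.06 after thinning (0 and 1, 26 tested). The higher gene, the GTPase gene *Iigp1*, was macrophage-high. The MHC class I genes were abundant, with *B2m* at 248, 270.0 and 305 molecules in WT and 269, 273 and 315 in *muMt*-/- libraries (log2 fold change 0.17, 95% interval -0.12 to 0.45). *H2-D1* stood at 0.29 (95% interval -0.04 to 0.62) and *H2-K1* at -0.16 (95% interval -0.56 to 0.24), with 5 of 6 *muMt*-/- libraries below every WT library for *H2-K1*.

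Proliferation genes were mostly shared with TAMs. Of 30 genes of S phase and DNA replication, 28 were tested, with 0 in either direction and a median of 0.47, which was 0.38 with size factors and 0.09 with log2 depth as a covariate (0 and 1). *Pcna*, the sliding clamp of DNA replication, had 9.62, 15.0 and 22.1 molecules against 11.1, 17.1 and 23.7 (log2 fold change 0.24). Of 32 genes of G2 and mitosis, 28 were tested, with 3 higher, 0 lower and a median of 0.34, which was -0.11 with log2 depth as a covariate (1 and 1) and 0.10 under the marker covariate (3 and 3). *Cdc20*, an activator of the anaphase-promoting complex, had 0 molecules in WT and 14 in *muMt*-/- libraries, in each of the 6, and was at least 3.08-fold higher against the floor of 3 molecules (2.4-fold without *muMt*-/- replicate 5).

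*Cenpf*, of the kinetochore, had 8 and 39 molecules (log2 fold change 1.75, 95% interval 0.58 to 2.93), and *Birc5*, survivin, 7 and 31 (log2 fold change 1.56). *Hmgb2*, a chromatin protein of dividing cells and the most abundant of the list, had 97 and 182 molecules (log2 fold change 0.45, 95% interval -0.07 to 0.96), and *Cenpa*, the histone variant of centromeres, 25 and 48 (log2 fold change 0.47, and -0.10 after thinning). *Mki67*, the Ki-67 antigen, was at 0.0, 9.61 and 15.5 against 2.24, 10.1 and 11.4 (log2 fold change 0.09), and *Top2a*, topoisomerase II, was at 7.33, 16.0 and 29.3 against 10.1, 15.2 and 20.6 (log2 fold change -0.02). The summed level of the G2 and mitosis list was lowest in WT replicates 1 and 2, at 47.7 and 57.7, which are among the 3 libraries with fewest molecules.

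All 23 genes of glycolysis and hypoxia were tested, with 2 higher, 0 lower and a median of 0.34, which was 0.07 with log2 depth as a covariate. The calls were 0 and 0 with size factors and after thinning, 0 and 1 with log2 depth, 1 and 0 under the marker covariate and 2 and 0 after subtraction. *Pgk1*, phosphoglycerate kinase, had 14.4, 28.0 and 46.9 molecules in WT and 35.9, 40.6 and 46.6 in *muMt*-/- libraries (log2 fold change 0.57, 95% interval 0.08 to 1.07). Its WT values ran from low in replicates 1, 2 and 4 to the *muMt*-/- range in replicates 5 and 6, so that no *muMt*-/- library was above every WT library. *Hk2*, hexokinase, had 13 and 42 molecules (log2 fold change 1.16), while *Gapdh* stood at 0.21, *Ldha* at 0.29 and *Aldoa* at -0.28.

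All 45 subunit genes of oxidative phosphorylation were tested, with 2 higher (*Cox7a2* and *Cox6a1*, of cytochrome c oxidase), 0 lower and a median of 0.21, which was 0.11 with size factors. The calls were 0 and 0 with size factors, after subtraction and after thinning, 0 and 1 with log2 depth and 3 and 0 under the marker covariate. *Cox7a2* had 9.17, 14 and 19.5 molecules against 11.1, 20.9 and 28.3, with 5 of 6 *muMt*-/- libraries above every WT library and replicate 1 below 5 of the 6 WT libraries. All 54 cytosolic ribosomal protein genes were tested, with 0 in either direction and a median of -0.07, which was -0.20 with size factors (0 higher, 10 lower), -0.21 after thinning (0 and 7), 0.14 under the marker covariate (4 and 0) and 0.03 with TMM over T cell-high genes (0 and 0). Their summed level was 6453.8, 7233.4 and 7726.9 in WT and 5632.9, 6215.4 and 6636.0 in *muMt*-/- libraries, lowest in *muMt*-/- replicate 1 and with overlap between the groups.

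Of 16 genes of the BCL2 family, 10 were tested, with 0 higher, 1 lower (*Bcl2*) and a median of 0.04, which was -0.05 with size factors (0 and 1), -0.03 after subtraction (0 and 0) and 0.27 under the marker covariate (0 and 0). The survival gene *Mcl1* stood at 0.36 and the death-promoting *Bcl2l11* (BIM) at 0.05. The near-identical copies *Bcl2a1b* and *Bcl2a1d* stood at 0.28 and 0.26, and reads may be shared between them.

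Of 33 genes for GABA receptors, synthesis and transport, which the study addresses as a signal from B cells to T cells, 8 had any molecule in these libraries and 3 were tested, with 0 in either direction and a median of 0.34, which was 0.06 under the marker covariate and 0.03 after TAM subtraction. These 3, *Gabarap*, *Gabarapl1* and *Gabarapl2*, encode trafficking and autophagy proteins and form no receptor subunit. *Gabarap* held 195 of the 294 molecules of the list, with 9.62, 14 and 20.6 in WT and 13, 18.3 and 22.1 in *muMt*-/- libraries (log2 fold change 0.34, 95% interval -0.19 to 0.86, and 0.03 after subtraction). For the receptor genes, differences were not detectable at this depth.

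**Figure D4:**
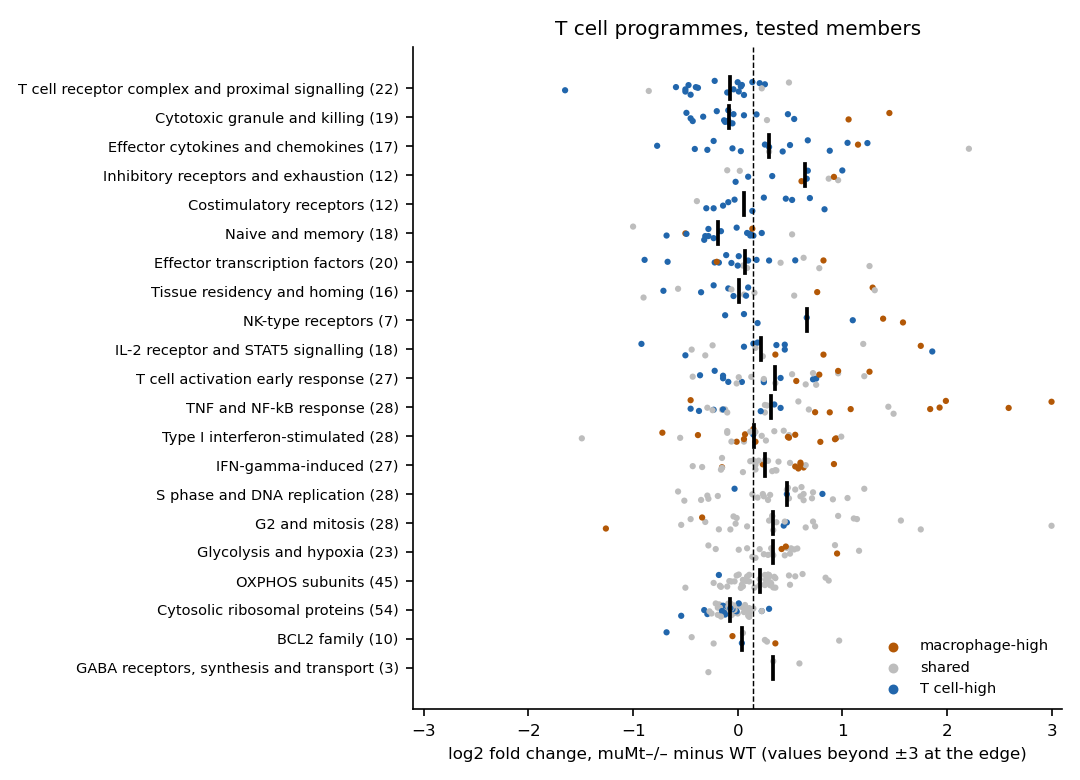
Log2 fold changes (*muMt*-/- minus WT) of the tested members of 21 T cell programmes, with the number tested in brackets, members coloured by level in TAMs relative to CD8+ T cells, a bar at each list's median and a dashed line at the median of all genes, 0.15. Medians run from -0.19 for naive and memory genes to 0.66 for NK-type receptors, and macrophage-high members lie mostly to the right.

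Lists for cells other than T cells and for RNA quality had the following values. For the macrophage markers, both allowances were built from the list itself, so that its values under them are fixed in part. Of the macrophage markers 18 of 20 were tested, with 14 higher, 0 lower and a median of 2.29, which was 1.90 after subtraction (3 and 0, over the 9 still tested) and 0.18 under the marker covariate (0 and 0), and the monocyte and neutrophil list had 3 of 6 tested members higher and a median of 1.91, or 1.78 with *F13a1* at its bound of at least 3.3-fold, which rests on *muMt*-/- replicate 1 with 13 of its 15 molecules. The dendritic cell list had 4 of 6 higher and a median of 1.92, which was 0.26 under the marker covariate (0 and 0). The fibroblast and endothelial list had 0 of 5 and a median of 0.60 (-0.20 under the marker covariate), the CD4 and regulatory T cell list 0 of 3 and a median of 0.45, and 1 natural killer cell gene (*Klre1*) and 1 epithelial gene (*Cdh1*) were tested at 1.10 and -0.69. None of the 12 B cell and 5 erythroid genes was tested, and the sex and strain list had 0 of 2 and a median of 0.01 (-0.10 with size factors).

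Of 13 heat shock and dissociation genes, all tested, 3 were higher, 0 lower, and the median was 0.25. Of the 3, *Atf3* and *Fos* were macrophage-high, and under the marker covariate 0 were higher, 1 lower, and the median was 0.02. The calls were 1 and 1 with size factors and 0 and 0 with log2 depth. *Hspa8*, the constitutive HSP70 chaperone, had 116, 136 and 144 molecules in WT and 137, 154 and 195 in *muMt*-/- libraries (log2 fold change 0.38, 95% interval 0.06 to 0.70), with 3 of 6 above every WT library. The unadjusted p of *Hspa8* was over 0.05 with size factors, after thinning, under the marker covariate and with log2 depth. *Hsp90ab1* stood at -0.22. The nuclear-retained RNAs had 0 of 3 in either direction and a median of 0.31 (-0.49 under the marker covariate, -0.17 after thinning). *Malat1* was at 154, 230.0 and 263 against 98.3, 175 and 346 (log2 fold change -0.11), with its highest value in *muMt*-/- replicate 1. It stood at -0.56 under the marker covariate and -0.41 after subtraction, with an unadjusted p under 0.05 in each.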

How the data were processed

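The deposited table holds, for each gene, a molecule count from the authors, whose alignment used STAR 2.5.4b and mm10; it is not normalized. 0 columns were left without a sample. The 24781 genes were read as they stand, and the 6663 with a mean normalized number (DESeq2 size factors, 18 CD8+ T cell libraries) above 1 were tested with edgeR 4.0.16 (TMM, quasi-likelihood F-test, 1 coefficient per group, Benjamini-Hochberg threshold 0.05). DESeq2 1.42.0, R 4.3.3, Python 3.11.15, matplotlib 3.10.9, scipy 1.17.1, pandas 2.3.3 and numpy 2.4.6 were also used, where the study used DESeq2 1.30.1. Intervals are 95% and come from the edgeR standard error. For depth and genes detected, exact permutation (two-sided) ran over all 924 arrangements, with a smallest p of 0.0022. Folds against 0 use a floor of 3 molecules over the group.

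The members and the 33 lists were chosen with earlier results of these data known, and lists get no p. Genes were named by rule: from each list the up to 4 tested members with most molecules and each member with an unadjusted p under 0.05; the 10 smallest p in each direction at a mean of at least 5, over all tested and over T cell-high genes; and *Ifng*, *Tnf*, *Il2*, *Gzmb* and *Prf1*. This gave 183 genes. Single marker genes at or near 0 were named outside it, after their values were seen. *Lilrb4* and *Zfp683*, members of 2 lists, are not in the file under these names. Coordinates are from RefSeq for mm10.

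Alternatives were DESeq2's size factors, DESeq2's Wald test, TMM over T cell-high genes, filterByExpr, no filter, a mean above 5, the 12 libraries alone, a robust fit, replicate number as block, macrophage marker share or log2 depth as covariate, subtraction of TAM molecules, thinning to 22896 molecules, other class ratios and leaving out each library. The counts cover molecules, so that intervals of shares hold counting error only. Immunoglobulin genes were not analysed here.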

Additional observations from a re-analysis of the deposited data

Results flagged for a closer look

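Single libraries were marked where a Dixon test set them apart from the rest of their group, which chance does in about 1 in 20 groups; 21 of 158 tests did so. The macrophage marker share was set apart as highest in WT replicate 5 at 0.244% and in *muMt*-/- replicate 1 at 0.834%. The summed macrophage markers were highest in the same libraries, at 144 and 536 normalized molecules. So were the dendritic cell markers, at 171 and 500.0.

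In *muMt*-/- replicate 1 the monocyte and neutrophil markers (211), the residency and homing genes (345) and the TNF and NF-κB genes (544) were highest, and the oxidative phosphorylation genes (507) lowest. Erythroid genes were highest in WT replicate 2 at 40.9.

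Among single genes, *Cd74* was highest in WT replicate 5 at 62.9 and in *muMt*-/- replicate 1 at 226. *BC018473* at 26.3 and *Mir6240* at 67.8 were highest in *muMt*-/- replicate 1. *H19* was highest in *muMt*-/- replicate 2 at 68.4, and *Tnf* in *muMt*-/- replicate 3 at 10.7. In WT libraries, *Bhlhe40* was highest in replicate 4 at 23.7, *Crem* in replicate 2 at 24.0 and *Il2ra* in replicate 6 at 26.3, and *Bola2* was lowest in replicate 1 at 7.33.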

How the results depend on the processing

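The number of genes with an adjusted p under 0.05 (edgeR, Benjamini-Hochberg), 0 in the report, was 72 without a filter, 1 with the 12 libraries alone (*Mir6240*) and 13 without WT replicate 5, 12 of them macrophage-high. It was 4 (*Cd74*, *Ctss*, *H2-Aa* and *Psap*) without the library of each group that had most macrophage markers. That alternative and the one without the 3 WT libraries of fewest molecules were chosen after the data were seen. Leaving out each other library gave 0.

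Genes higher at an unadjusted p under 0.05 (358) numbered 161 with DESeq2's Wald test, 171 after TAM subtraction, 52 with filterByExpr (beside 49 lower), 180 with log2 depth as covariate, 89 at a mean above 5 (beside 49 lower), 732 without a filter, 154 after thinning and 173 without 3 WT libraries. Leaving out each library gave 255 to 413. Genes lower (53) numbered 105 with size factors, 26 with TMM over T cell-high genes, 93 with either covariate, 121 without a filter and 80 without 3 WT libraries, and 52 to 77 when each library was left out.

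Genes higher without overlap (20) numbered 4 at a mean above 5. Where the means of both groups were above 5, lower genes without overlap outnumbered higher ones on the scale of DESeq2's size factors, as named above. When each library was left out, the same 6663 genes were counted with fewer libraries to keep apart, so that a rise was built in. Genes higher without overlap then numbered 24 to 56. They were 40, 56 and 33 without WT replicates 4, 5 and 6 and 34 without *muMt*-/- replicate 6. Genes lower without overlap (9) numbered 12 to 27, with 16, 27, 14, 18 and 17 without WT replicates 1, 3, 4, 5 and 6 and 15, 19, 18 and 15 without *muMt*-/- replicates 1, 2, 4 and 5.

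The T cell-high median (-0.01) was -0.19 with filterByExpr, 0.34 with the marker covariate, -0.17 at a mean above 5 and -0.19 with class ratios from WT libraries, and -0.08 to 0.07 when each library was left out. The macrophage-high median (0.75) was -0.06 with the marker covariate and 1.39 with class ratios of at least 4, and 0.53 to 0.92. The shared median (0.14) was 0.04 with size factors, with the Wald test and without 3 WT libraries, 0.22 with TMM over T cell-high genes, 0.03 with filterByExpr, log2 depth or a mean above 5, and 0.0 after thinning. It was 0.06 to 0.16 when each library was left out, lowest without WT replicate 2.

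The difference in molecules (23470) was 19287.9 to 30088.3 when each library was left out, with an exact permutation p of 0.00866 to 0.0779. It was over 0.05 without WT replicates 1, 2 and 3 (21187.5, 19287.9, 19765.3) and *muMt*-/- replicates 2, 3 and 5 (21526.5, 21357.5, 23071.1). The difference in genes detected was 1286.4 to 1979.4, with an exact permutation p of 0.00649 to 0.0671, over 0.05 without the same libraries (1419.2, 1286.4, 1344.0 and 1520.3, 1430.1, 1496.5). The macrophage marker share differed by 0.119 to 0.263 percentage points, least without *muMt*-/- replicate 1.

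Among the 80 named genes with an unadjusted p under 0.05, the log2 fold change reversed with the marker covariate for *Atf3* (-0.59), *C1qa* (-0.03), *Ccr2* (-0.13), *Cd14* (-0.19), *Ctsc* (-0.44), *Cxcl2* (-0.36), *Fcer1g* (-0.26), *Fos* (-0.63), *H2-Eb1* (-0.13), *Il1b* (-0.81), *Itgam* (-0.29) and *Tyrobp* (-0.21). After TAM subtraction it reversed for *Ccr2* (-0.26), *Ctsc* (-1.1) and *Fcer1g* (-0.22), and without *muMt*-/- replicate 2 for *H19* (-0.33, and 2.93 at most without WT replicate 6). Named genes without such a p also changed sign, 28 with the marker covariate, 26 with log2 depth, 22 without 3 WT libraries, 15 after thinning, 7 after subtraction and at most 13 in any other alternative. Of the 80, 67 kept their direction in all of the 27 alternatives in which they were tested. The cause of these differences was not tested. *C1qa*, *Cd14* and *Itgam* are among the 20 markers that make up the marker covariate.

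Replicate numbers do not pair the groups. Across numbers, r ranged from -0.226 to 0.229, over 0.1 in 2 of 6 pairs, and 0 of 6 WT libraries correlated best with their own number.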
